A study of Mus musculus with 7 samples.

Results

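Hes1, Hes6, Hey1, Hey2 and Heyl, a set of 5 effector genes of Notch signalling, were described in peak lists from mouse muscle stem cells (MuSCs, the resident stem cells of skeletal muscle). The genes were chosen by name, 5 of 21938 protein-coding genes in the GENCODE M21 annotation of build mm10, and every MACS peak within each gene body and 50 kb either side was counted. These windows held 75 of 122720 merged ATAC regions. TRF2 (gene Terf2) is a telomere-binding protein of the shelterin complex that can also bind DNA away from telomeres. CUT&Tag, which cuts and tags DNA around an antibody-bound protein, gave 2 TRF2 libraries and 1 IgG library, labelled Wildtype and taken from tibialis anterior muscle 3 days after injury with notexin, a snake toxin. The study's methods place this assay in control Pax7-Cre mice with a TdTomato reporter and give an earlier time and a second muscle, so the injury time is uncertain. ATAC-seq, which reads open chromatin by transposase insertion, gave 2 Control and 2 TRF2KO libraries from hind limb MuSCs, labelled 0 hr. The TRF2KO title stands for MuSC-specific deletion of floxed Terf2 by tamoxifen-induced Pax7-CreERT2, although the genotype label of these libraries also reads Wildtype, and MuSCs had been sorted as lineage-negative, VCAM-positive (or CD34-positive) and α7-integrin-positive cells. Age of the animals at collection, and whether replicates came from separate animals, are not given in the labels, so all p-values measure the spread between these libraries, which may be technical.

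Notch is a receptor that is cut after it meets a ligand on a neighbouring cell. Its freed intracellular domain joins the DNA-binding protein RBPJ and a Mastermind coactivator and switches on Hes and Hey genes, which encode basic helix-loop-helix repressors. In muscle, Notch signalling keeps MuSCs quiescent, and Hey1 and Heyl are known to be needed for that state. Hes1 is the classical Hes repressor, Hes6 is an atypical member that can oppose Hes1, and Hey2 is best known from heart and vessels.

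The lists differed in size. The 4 ATAC libraries held 84102 to 100521 MACS peaks, the TRF2 libraries 12290 and 15479 and the IgG library 656. No total read number was used here, and the median background pileup recovered from fold and p was 3.35 to 4.56 fragments in the ATAC libraries and under 1 fragment in the CUT&Tag libraries, with 0.432 to 1.71 at the TRF2 peaks of these windows. The deleted gene checked the labels: the tallest ATAC region at a Terf2 start had folds of 54.3 and 48.4 in Control and 21.5 and 18.6 in TRF2KO, a log2 difference of -1.21 ± 0.11 (SE; limma adjusted p = 8.64e-13, lower under all 4 scalings described below). The starts of 8 of 8 MuSC markers, Pax7 and Myf5 among them, carried a peak in all 4 ATAC libraries, with summed folds of 411 to 472 in Control and 429 to 440 in TRF2KO. Among these Itga7, the gene of the sorted α7-integrin, had folds of 73.4 and 68 in Control and 60.4 and 56.1 in TRF2KO. It was called lower with quantile normalization and percentiles only. Myf5, Sdc4 and Cd34 were called higher with median centring only. No peak was listed in any ATAC library at the starts of the immune genes Ptprc and Itgam or the endothelial gene Emcn, and Cdh5 had one in Control replicate 2 alone. The other listed genes of both types, Cd68 (folds 75.2 to 93.4), Csf1r, Pecam1, Kdr, Tek and Tie1, had a peak in all 4. Summed folds overlapped between genotypes for 4 immune genes and were 42 to 43.7 in TRF2KO against 34.6 to 41.7 in Control for 6 endothelial genes. Of the endothelial genes Tek was called higher by limma with median centring only (log2 0.40 ± 0.14 SE, adjusted p = 0.0237). Pecam1, Kdr and Tie1 were called under no scaling. Summed folds were 104 to 113 in TRF2KO against 118 to 135 in Control for 6 smooth muscle and pericyte genes. This difference was carried by Acta2, which was lower (log2 -0.72 ± 0.11 SE, adjusted p = 1.06e-06). In that list Abcc9 was called higher with median centring and under no other scaling (log2 0.57 ± 0.22 SE, adjusted p = 0.0426), and Rgs5 had a peak in both TRF2KO libraries (folds 6.18 and 3.4) and in neither Control library. Summed folds were 62.2 to 62.9 against 69.6 to 83.3 for 4 myofibre genes, with Acta1 alone called, as lower (log2 -0.44 ± 0.15 SE, adjusted p = 0.0202). Ckm (log2 -0.11 ± 0.17 SE) and Myh1 (0.07 ± 0.12 SE) were called under no scaling, and Myh4 was not tested. Summed folds of 4 fibro-adipogenic genes were 151 to 173 in Control and 153 to 162 in TRF2KO. Among them Ly6a, which encodes the Sca1 antigen that the sort selects against, had a peak in both TRF2KO libraries and in neither Control library. Its folds of 3.66 and 2.95 were near the lowest of those lists (2.52 and 2.5). Dpt went the other way, with folds of 118 and 102 in Control and 105 and 100 in TRF2KO. It was called lower with quantile normalization and percentiles only, and Pdgfra and Dpp4 were called under no scaling. The part of such differences in the Hes and Hey values was not tested. In sorted populations a change in the mix of cells and a change within each cell cannot be told apart.

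All 5 genes were open at the start. A MACS peak lay within 3 kb of an annotated transcript start in all 4 ATAC libraries for 5 of 5 genes, against 67.7% of protein-coding genes. Fold here is the height of the peak's summit over background as MACS wrote it. The Hes1 start (gene chr16:30064384-30067796, plus strand) had folds of 130 and 111 in Control and 124 and 116 in TRF2KO, and the groups overlapped. The Hes6 start (chr1:91411483-91414038, minus strand) had folds of 116 and 104 in Control and 117 and 116 in TRF2KO. Its TRF2KO libraries lay within 1 fold unit of the higher Control library.

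At Hey1 and Hey2 both TRF2KO libraries lay above both Control libraries, and at Heyl this held for an internal peak and not for the peak over the 5′ end. The Hey1 start (chr3:8663359-8667256, minus strand) had folds of 62.4 and 64.8 in Control and 78 and 72.4 in TRF2KO. The Hey2 start (chr10:30832359-30842801, minus strand) had folds of 112 and 94.3 in Control and 130 and 123 in TRF2KO. At Heyl (chr4:123233556-123249875, plus strand) the tallest peak near a start was internal, with folds of 83.3 and 72.5 in Control and 94 and 91.2 in TRF2KO. Its summit lay 4432 bp inside the gene in Control replicate 1 and 6224 to 6232 bp inside in the other 3 libraries, so different summits are compared. The peak over the Heyl 5′ end had folds of 65.1 and 53.1 in Control and 59.5 and 60.6 in TRF2KO, which overlapped. This order of the genotypes occurred in 18.5% of all regions with a peak in all 4 libraries and the opposite ordering in 29.9%. The share among start regions alone was not counted. Starts differed from other regions, since limma with median centring, described below, called 49.7% of coding starts higher against 18.5% of all regions. With 2 libraries a genotype the smallest exact permutation p is 0.33.

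**Figure D1:**
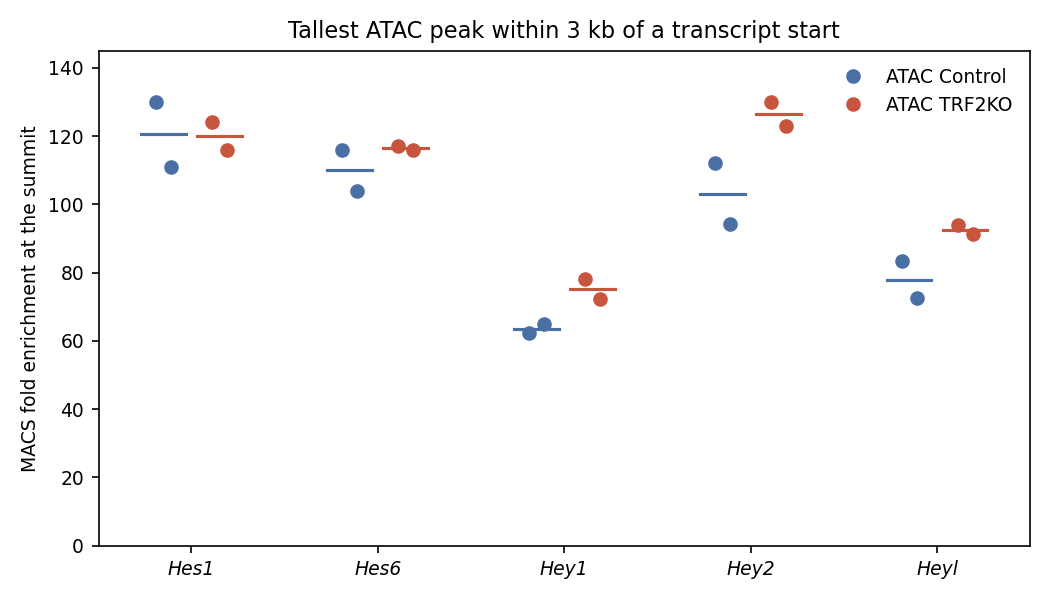
Fold enrichment at the summit (vertical axis, no unit) of the tallest ATAC peak within 3 kb of a start of each gene. Points are libraries (2 per genotype) and bars their means. TRF2KO points lie above Control points for Hey1, Hey2 and the internal Heyl peak and overlap them for Hes1.

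Ranked within their own library, the starts were among the tallest peaks. The fold percentile was 97.8 to 98.7 for Hes1, 97.5 to 98.3 for Hes6, 97.6 to 98.2 for Hey2, 95.1 to 96 for the internal Heyl peak and 91.9 to 94.7 for Hey1. Hey1 held the lowest rank of the 5 in every library, and the ranges of Hes1, Hes6 and Hey2 overlapped. Percentiles were higher in both Control than in both TRF2KO libraries for Hes1 and Hes6, an order found at 31% of the 14858 open coding genes. They were higher in both TRF2KO libraries for Hey2 and the internal Heyl peak, an order found at 9.12%, and the groups overlapped for Hey1. By fold TRF2KO was the higher genotype at the Hey1 start in both libraries, so the order there depends on the scale.

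Chromatin width at the starts differed between genes more than between genotypes. Of the bases within 3 kb of the 5′ end, peaks covered 83.6% to 85.8% at Hes1 and 43.4% to 44.2% at Hey2 over the 4 libraries. Hes6 lay at 44.7% to 52.1%, Heyl at 61.8% to 66.8% and Hey1 at 60.8% to 74.3%. The lowest Hey1 value was that of Control replicate 1, and the genotypes overlapped at all 5 genes except Hey2 and Heyl, where both Control libraries were above both TRF2KO libraries. The Hey2 gap was 43.9% against 43.8%. Over the genome the TRF2KO lists also covered fewer bases (65.3 and 62 Mb) than the Control lists (70.3 and 76.9 Mb). The share of all coding starts with this order was not counted.

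TRF2 peaks in both CUT&Tag libraries lay within 3 kb of a start at Hes6, Hey1 and Hey2, 3 of the 5 genes. Such a TRF2 region was found at 25.5% of all coding genes and at 37.5% of those open at the start in all 4 ATAC libraries. No IgG peak fell in any of the 5 windows. With only 656 IgG peaks over the genome, empty windows say little about background at these TRF2 peaks. At Hey2 the TRF2 peak had a fold of 6.84 in replicate 1 and 9.24 in replicate 2, with -log10 q of 7.25 and 11.3 and summits of 13 and 14 stacked fragments 135 and 101 bp upstream of the 5′ end. At Hey1 the folds were 6.12 and 5.56, with -log10 q of 5.63 and 4.68 and summits of 11 and 10 fragments in an exon. At Hes6 the folds were 5.18 and 5.89, with -log10 q of 4.88 and 5.95 and 13 fragments in each library. Hey2 was the tallest in both libraries and the only one of the 3 with -log10 q of at least 5 in both.

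Hes1 and Heyl had no such region at the start. The Hes1 window held 1 TRF2 peak per library, 21.4 kb upstream (fold 3.55) in replicate 1 and 26.3 kb downstream (fold 5.95) in replicate 2, neither over an ATAC peak. At Heyl, replicate 2 had a weak peak (fold 4.18) 6.5 kb inside the gene near an internal start, where replicate 1 had none. Both libraries had a TRF2 peak 5 kb upstream of Heyl (chr4:123228366-123228762), with folds of 7.15 and 4.89. It lay in the tallest ATAC region of the Heyl window, whose folds were 195 and 170 in Control and 179 and 175 in TRF2KO. That region was not called between genotypes with median centring (log2 0.10 ± 0.06 SE, limma adjusted p = 0.239) or without centring. It was lower in TRF2KO by limma with quantile normalization (adjusted p = 0.00713) and percentiles (adjusted p = 0.000308), a dependence on scaling described below for all regions. The Hes6 window also held a TRF2 region in both libraries 8.2 kb upstream (chr1:91422132-91422650, folds 4.86 and 4.49), with no ATAC peak in any of the 4 libraries. The ATAC libraries are labelled 0 hr and the CUT&Tag libraries come from injured muscle. Whether chromatin at these TRF2 peaks was open after injury is therefore not shown. The windows held 7 TRF2 peaks in replicate 1 and 16 in replicate 2, which has the longer list.

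**Figure D2:**
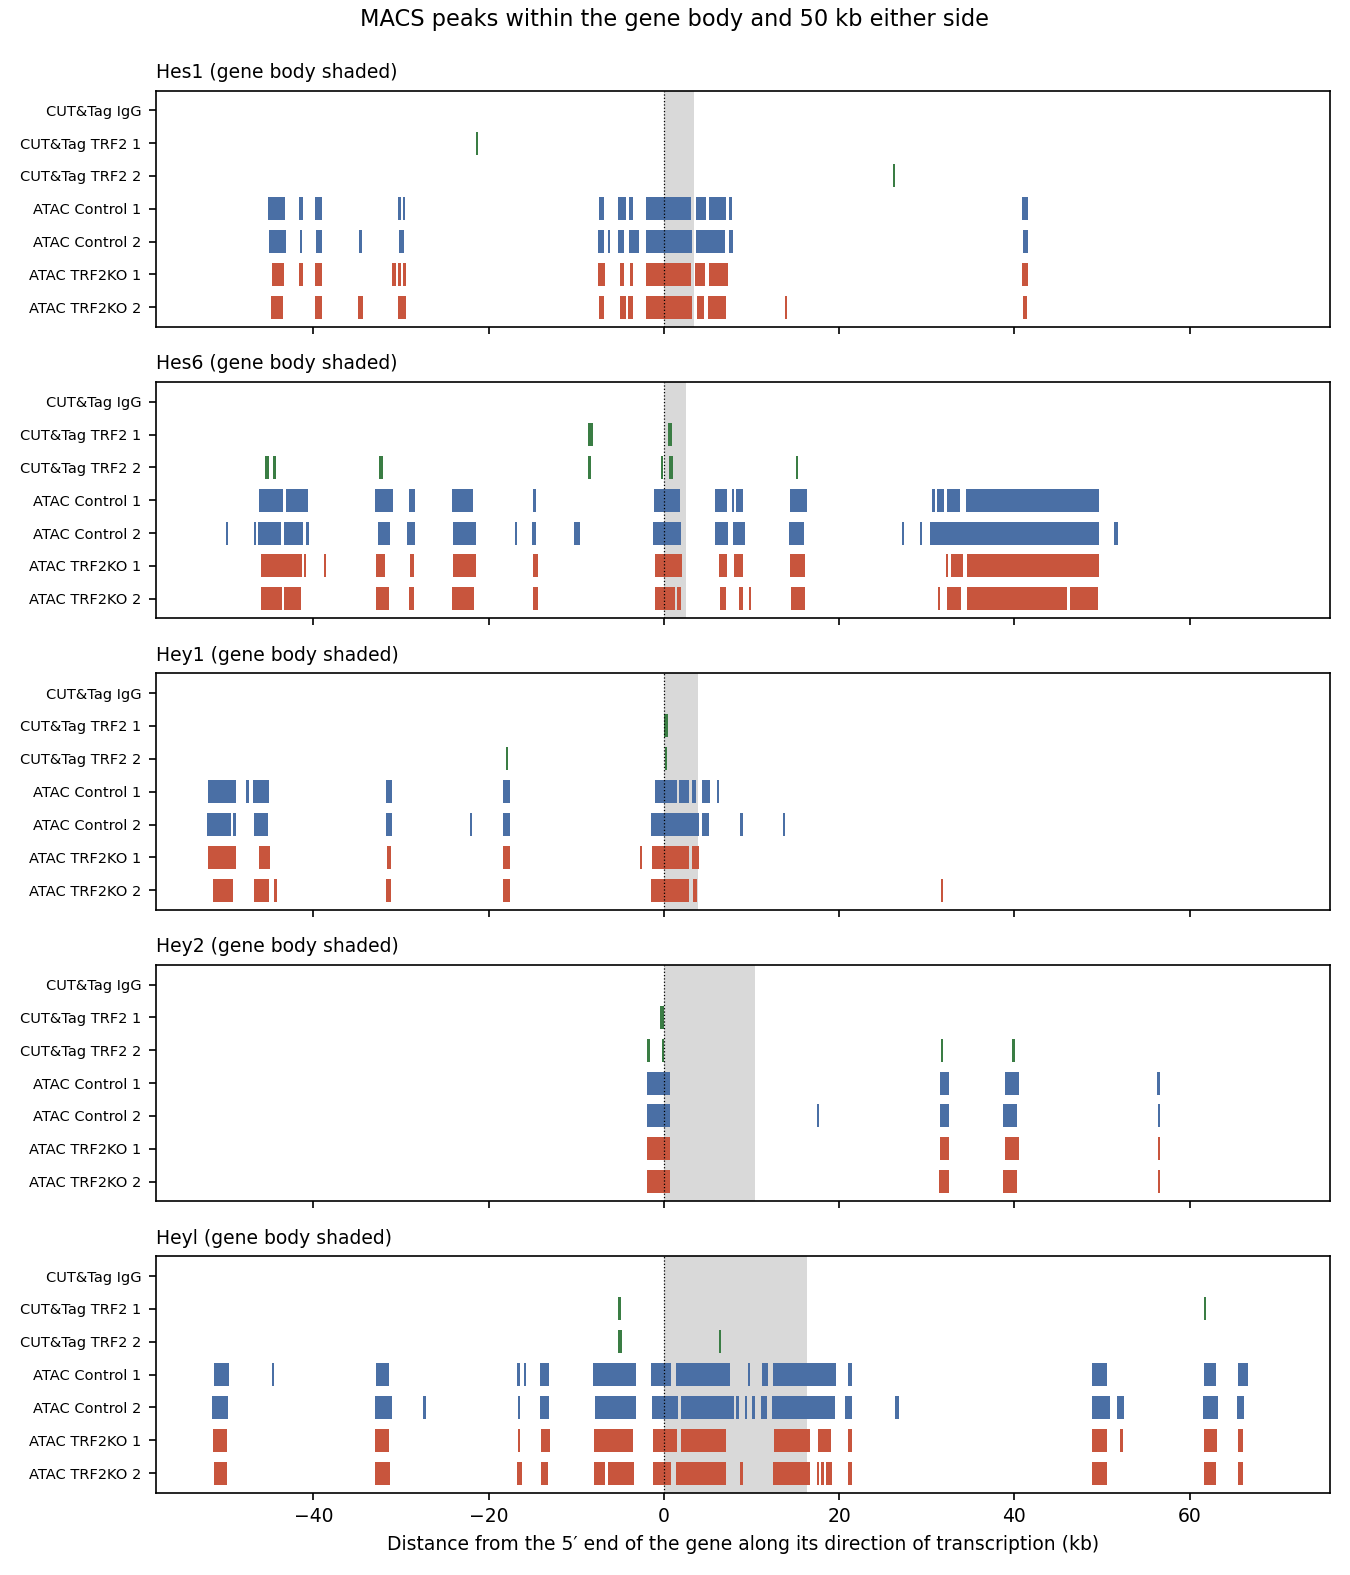
MACS peaks (bars) of the 7 libraries (rows) by distance in kb from the 5′ end of each gene along its direction of transcription, with very narrow peaks widened to be visible. TRF2 peaks (green) line up in both libraries at the starts of Hes6, Hey1 and Hey2 and upstream of Hes6 and Heyl. The IgG row, from a list of only 656 peaks, is empty.

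The sequences under these peaks were searched for guanine quadruplex (G4) motifs on both strands, defined as 4 G runs (3 or more bases each) separated by loops 1 to 7 bases long. DNA of this kind can fold into 4-stranded stacks, and TRF2 is known to bind some of them. The TRF2 start regions of Hes6 and Hey2 each held 1 motif and that of Hey1 held none with these loops and 2 with loops of up to 12 bases. A motif was present in 44.5% of the 4937 TRF2 regions within 3 kb of a coding start, and in 65.5% with loops of up to 12 bases. G+C content was 64.1% at Hes6, 69.3% at Hey1 and 69% at Hey2, against a median of 65.4% for those regions. The Hes6 start motif lay at chr1:91413021-91413047 on the minus strand, the gene's own, 991 bp downstream of the 5′ end. The Hey2 motif lay at chr10:30843074-30843096 on the plus strand, opposite to the gene and upstream of its 5′ end. The Hes6 region 8.2 kb upstream held 3 copies of the same 30-base motif, of which the copies at chr1:91422326-91422355 and chr1:91422605-91422634 on the plus strand lie in the peaks of both libraries. The Hes6 start motif lies in the replicate 2 peak and outside the replicate 1 peak, and the Hey2 motif in the replicate 1 peak and outside the replicate 2 peak. These 3 sequences are shown because they are the G4 motifs in the merged TRF2 regions, with the G runs in capitals, from the mm10 genome.
Hes6 start: GGGGctacGGGtggatGGGcttGGGGG
Hey2 start: GGGGcGGGcgtgtcGGGcgaGGG
Hes6 upstream: GGGcacacaGGGcacacaGGGcacacaGGG

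Promoters in the RefSeq table (GRCm38.p6, 250 bases before to 50 after a start) were matched for Hes6 and Hey2. Hes1, Hey1 and Heyl were not matched. Both Hes6 starts and the Hey2 start were searched on both strands for the RBPJ core TGGGAA, the N-box CACNAG bound by Hes proteins and the E-box CACGTG bound by many helix-loop-helix factors. The Hey2 promoter held 2 RBPJ cores, and 25.6% of all 32851 promoters held at least 1. With the start as base 1, one match began at base -207 on the opposite strand and the other at base -3 on the gene's strand, across the start. It held no N-box and no E-box. The Hes6 promoter under the TRF2 region held 2 N-boxes, a motif in 42.5% of promoters, and no RBPJ core or E-box, the last in 7.15% of promoters. The merged TRF2 start regions, which reach beyond these promoters, held 1 RBPJ core at Hes6, 2 at Hey1 and 1 at Hey2. They are 349 to 563 bp long, so the promoter share is no background for them. The share of all TRF2 start regions with an RBPJ core was not counted. The upstream Hes6 promoter held none of the 3 motifs and 1 G4 motif, which 18.6% of promoters held. The Hey2 promoter lies at chr10:30842734-30843033 and the Hes6 one at chr1:91413173-91413472, both on the minus strand, and both overlap TRF2 peaks of both libraries. In the Hey2 sequence capitals mark the RBPJ cores on either strand, and in the Hes6 sequence the N-boxes on either strand.
Hey2 promoter: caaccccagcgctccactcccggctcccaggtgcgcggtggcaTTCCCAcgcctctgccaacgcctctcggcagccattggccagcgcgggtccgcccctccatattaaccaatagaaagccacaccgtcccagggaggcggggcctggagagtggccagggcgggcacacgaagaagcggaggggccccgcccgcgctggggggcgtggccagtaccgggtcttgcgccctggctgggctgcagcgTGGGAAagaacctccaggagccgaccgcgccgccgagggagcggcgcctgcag
Hes6 promoter: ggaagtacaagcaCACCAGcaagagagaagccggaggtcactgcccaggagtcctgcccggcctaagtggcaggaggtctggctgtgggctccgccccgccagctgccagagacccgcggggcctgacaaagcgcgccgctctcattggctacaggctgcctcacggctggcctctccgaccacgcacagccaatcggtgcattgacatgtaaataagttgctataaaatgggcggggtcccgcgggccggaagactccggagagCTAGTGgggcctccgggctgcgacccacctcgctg

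Whether chromatin at these genes differed between genotypes was asked for the 39 regions with a peak in all 4 libraries. Log2 folds were centred on each library's median and fitted with limma over all 61610 such regions, with Benjamini-Hochberg adjustment. Of the 39, 9 were higher and 1 was lower in TRF2KO at adjusted p under 0.05, against 18.5% higher and 7.48% lower of all regions. The 39 had a median log2 difference of 0.11 and all regions a median of 0.10. The scale set most of these calls. Quantile normalization called 1 of the 39 higher and 3 lower (4.94% and 7.32% of all regions), folds without centring 1 and 1 (1.34% and 6.87%), and log odds of the within-library percentile 1 and 8 (1.05% and 12.9%). Of all calls, 71.2% were higher in TRF2KO with median centring, 40.3% with quantile normalization, 16.3% without centring and 7.55% with percentiles. A call held under all 4 scalings at 1 higher and 1 lower region of the 39. The share of all regions with such a call was not counted. It can be at most 1.05% higher and 6.87% lower, the smallest shares under any of the 4 scalings.

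The higher region lay 39.5 kb upstream of Hes1 (chr16:30024571-30025327), where the nearest annotated start is that of the non-coding gene 9030404E10Rik. Its folds were 34.3 and 29.2 in Control and 49.4 and 54 in TRF2KO, and the groups did not overlap. The log2 difference was 0.85 ± 0.11 (SE; 95% interval 0.64 to 1.07; limma adjusted p = 5.31e-09). It was 0.72 with quantile normalization and 0.71 without centring, and the percentiles gave 0.71 as log2 odds. It was 0.73 to 0.98 when any 1 library was left out, with adjusted p of at most 3.07e-06. No TRF2 peak lay there in either CUT&Tag library.

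The lower region lay 28.7 kb upstream of Hes6 (chr1:91442420-91443325), nearest to the start of the circadian clock gene Per2. Its folds were 9.9 and 6.84 in Control and 4.35 and 4.31 in TRF2KO. Both TRF2KO libraries lay below both Control libraries, with a log2 difference of -0.78 ± 0.24 (SE; adjusted p = 0.01). Without Control replicate 1 the difference was -0.60 and the call was lost (adjusted p = 0.173). It was also lost, with the same difference of -0.78, when regions with a peak in any library were fitted (adjusted p = 0.134).

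**Figure D3:**
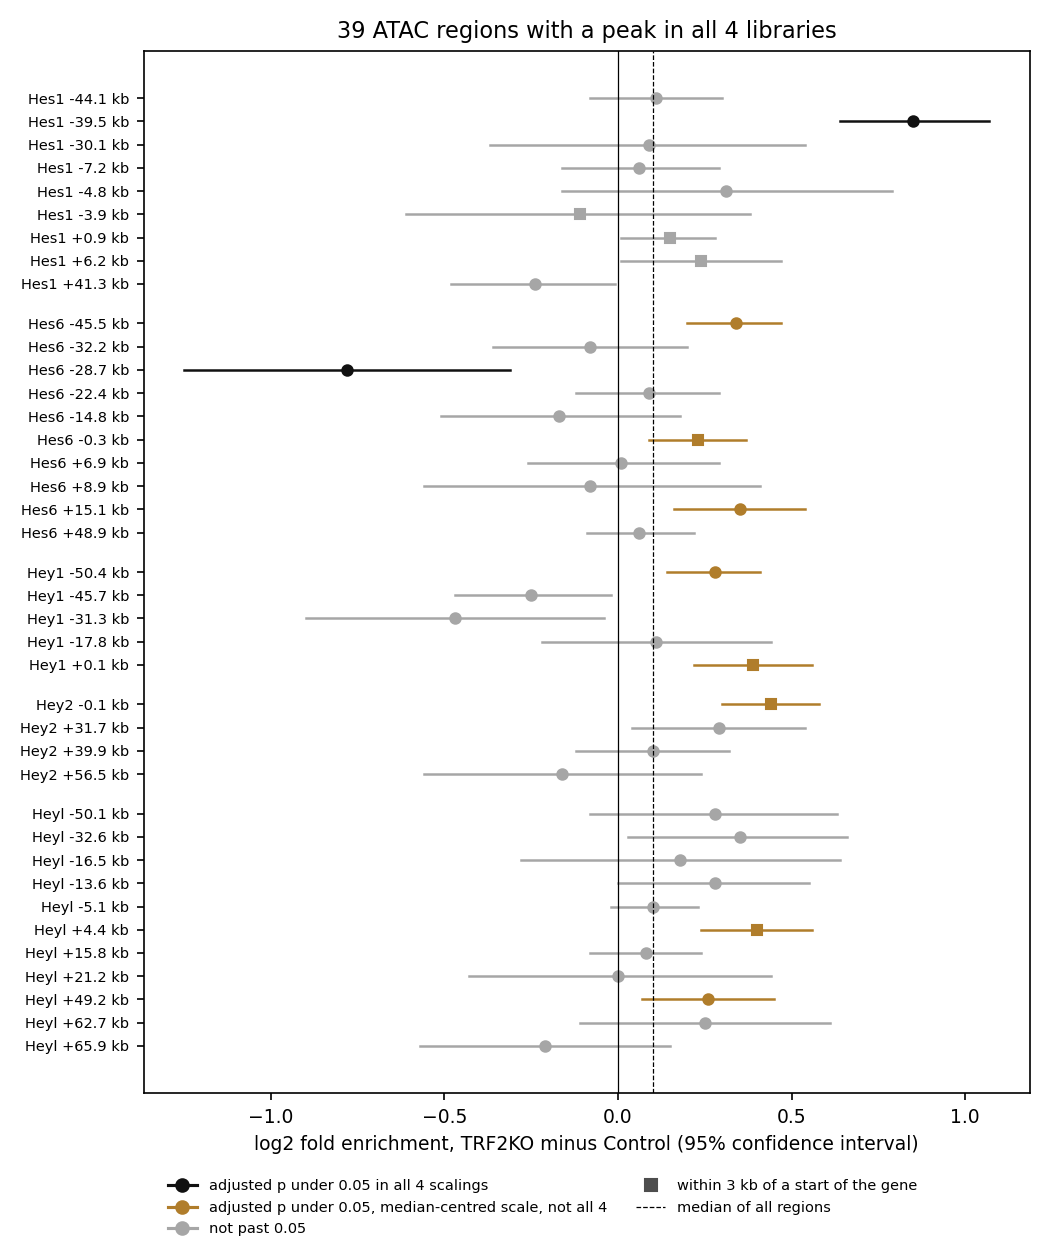
Log2 fold enrichment, TRF2KO minus Control, with 95% confidence intervals for the 39 regions, named by gene and summit distance from its 5′ end. Black marks the 2 regions called under all 4 scalings, gold those called with median centring but not under all 4, and squares regions within 3 kb of a start.

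At the starts themselves, 4 of the 5 genes passed with median centring and none under all 4 scalings. The log2 difference was 0.44 ± 0.07 (SE) at Hey2 (adjusted p = 2.71e-06), 0.40 ± 0.08 at Heyl (the internal peak, adjusted p = 7.19e-05), 0.39 ± 0.09 at Hey1 (adjusted p = 0.000412) and 0.23 ± 0.07 at Hes6 (adjusted p = 0.0115), all by limma. At Hes1 it was 0.15 ± 0.07 (adjusted p = 0.119). Higher calls were made at 49.7% and lower calls at 1.51% of the tallest start regions of 14778 coding genes (those with 1 merged region shared by all 4 libraries), whose median log2 difference was 0.25. The values of Hes6 and Hes1 were thus below that median and those of Hey1, Hey2 and the internal Heyl peak above it, all 5 within the range of -0.16 to 0.49 that held the central 90% of starts. With quantile normalization the differences were 0.17 at Hey1 and Hey2, 0.16 at Heyl, -0.04 at Hes6 and -0.13 at Hes1, with adjusted p from 0.0697 to 0.772. With percentiles the Hes1 start was called lower in TRF2KO (-0.60 as log2 odds of the percentile, adjusted p = 0.0182) and no other start was called. Without centring they were -0.00 at Hes1 and 0.08 to 0.29 at the others, with adjusted p of at least 0.28. Without Control replicate 1 the calls at Hey1 (adjusted p = 0.0523) and Hes6 (adjusted p = 0.0665) were lost, and that at Hes6 was also lost without TRF2KO replicate 2 (adjusted p = 0.155).

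**Figure D4:**
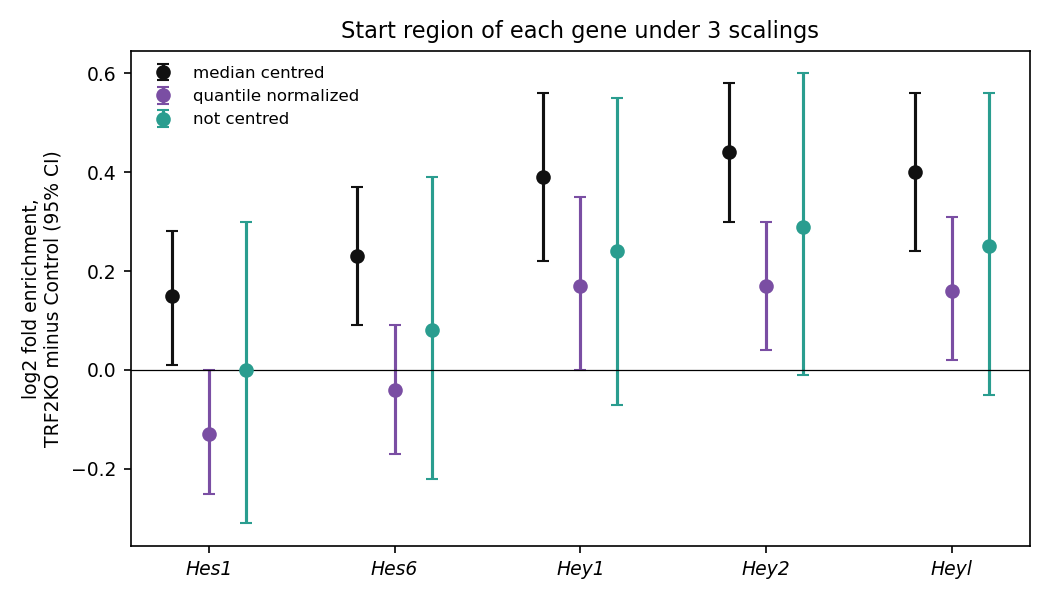
Log2 fold enrichment, TRF2KO minus Control, at the tallest start region of each gene (for Heyl the internal peak) with 95% confidence intervals, under median centring, quantile normalization and no centring. The median-centred interval lies above 0 for each gene, the uncentred interval spans 0 for each gene, and the sign differs between scalings at Hes1 and Hes6.

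Away from the starts, 4 further regions were called higher with median centring and not under the other scalings, with log2 differences of 0.26 to 0.35. A region 45.5 kb upstream of Hes6, over the start of Per2, had folds of 124 and 119 in Control and 140 and 136 in TRF2KO. A region 15.1 kb downstream of the Hes6 5′ end, over the start of the phosphatase gene Ilkap, had folds of 50.6 and 42.3 in Control and 55.1 and 51.5 in TRF2KO. A region 50.4 kb upstream of Hey1 had folds of 131 and 111 in Control and 134 and 130 in TRF2KO, where the groups overlapped. A region 49.2 kb downstream of the Heyl 5′ end, nearest to the poly(A)-binding protein gene Pabpc4, had folds of 55.5 and 54.4 in Control and 55.8 and 63.3 in TRF2KO.

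Some upstream regions had higher folds in both Control libraries. A region 45.7 kb upstream of Hey1 had folds of 42.8 and 42.8 in Control and 30.9 and 34.5 in TRF2KO (log2 -0.25 ± 0.11 SE, limma adjusted p = 0.0955), and passed with quantile normalization (adjusted p = 0.0321) and percentiles (adjusted p = 0.00945). A region 31.3 kb upstream of Hey1 had folds of 11 and 9.9 against 6.86 and 6.81 (adjusted p = 0.103), and a region 41.3 kb downstream of the Hes1 5′ end 37.5 and 31.7 against 25.6 and 27 (adjusted p = 0.128). Those 2 passed with percentiles only. The 39 regions divided into 8 with both Control libraries higher, 8 with both TRF2KO libraries higher and 23 that overlapped, against 29.9% and 18.5% of all such regions with Control and TRF2KO higher.

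Peak presence gave few differences. Of the 75 regions, 39 had a peak in all 4 libraries, 3 in both Control libraries and neither TRF2KO library, and 0 in the opposite pattern. These patterns made up 4.48% and 1.12% of all merged regions. The 3 lay near Hes1 (7.5 kb downstream of the 5′ end, folds 3.22 and 2.88), Hey1 (5.1 kb, 4.37 and 4.14) and Heyl (11.5 kb, 3.91 and 3.06), where the lowest folds of the 4 lists were 2.34 to 2.53. None was found with GoPeaks or SEACR. A further 30 regions had a peak in 1 library, 17 of them in Control replicate 2, the longest list. MACS peaks in the windows numbered 58 and 66 in Control and 52 and 57 in TRF2KO, a mean of 62 ± 5.66 against 54.5 ± 3.54 (SD, n = 2), a difference of -7.5 (exact permutation p = 0.33, two-sided, the smallest possible). They covered 101 ± 6.83 kb in Control and 86.5 ± 1.00 kb in TRF2KO (SD, n = 2; exact permutation p = 0.33). SEACR regions turned the direction, with 23 and 12 in Control and 20 and 21 in TRF2KO.

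Other Notch pathway genes and other family members gave the setting. Of 41 listed genes, 40 had a start region in all 4 libraries, and Helt had no peak at its start in any. By limma with median centring 22 of the 40 were higher, 0 were lower, and 18 did not pass, near the 49.7% of coding starts called higher, so the counts by role are a description. Their median log2 difference was 0.25, equal to that of all coding starts, and no gene was called under all 4 scalings. By role, 3 of 4 receptors were higher (Notch2 0.47 ± 0.10 SE, adjusted p = 0.00012) and 4 of 6 in the nuclear complex (Rbpj 0.25 ± 0.08, adjusted p = 0.0129). Higher calls were made at 5 of 7 cleavage genes (Adam10, the protease that sheds the receptor, 0.43 ± 0.07, adjusted p = 6.05e-06) and 4 of 4 Tle corepressors, the partners through which Hes proteins repress (Tle4 0.42 ± 0.06, adjusted p = 6.09e-07). They were made at 4 of 6 other family genes, Hes2, Hes5 (0.30 ± 0.09, adjusted p = 0.00946), Bhlhe40 and Bhlhe41. This class was listed by family and not by a role in Notch signalling. They were also made at 2 of 8 modifiers and inhibitors and 0 of 5 ligands. Among the ligands Dll1 had -0.12 ± 0.12 (adjusted p = 0.506) and Jag2 -0.05 ± 0.16 (adjusted p = 0.868). A TRF2 region in both libraries lay at 13 of the 41 starts, near the background of 25.5% of coding genes and 37.5% of open ones. Among the receptors, TRF2 folds were 4.1 and 4.03 at Notch3 and 4.48 and 6.5 at Notch4. At Rbpj each library had a TRF2 peak within 3 kb of a start (folds 7.13 and 6.88), but not in a shared region.

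**Figure D5:**
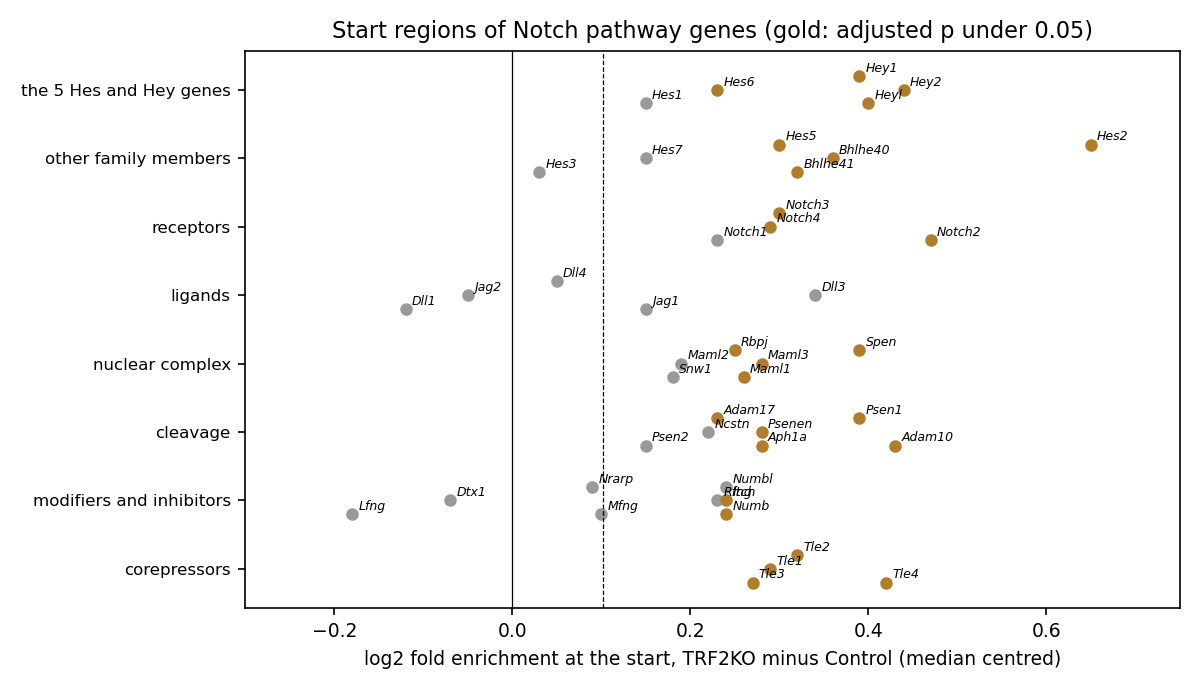
Log2 fold enrichment at the tallest start region, TRF2KO minus Control (median centred), for the 5 Hes and Hey genes and 40 other Notch pathway and family genes by role. Gold points passed adjusted p under 0.05, the dashed line is the median of all regions (0.10), and the ligands are the class with no gold point.

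Genes most like each member were named by the root mean square difference of start percentiles over the 4 ATAC libraries, among coding genes with the same TRF2 and IgG calls. For Hes1 these were Naca (0.115 percentile points), Phf12 (0.136) and Fbxo38 (0.191) of 5349 candidates. For Hes6 they were 0610010K14Rik, Gm21988 and Rnasek, with the same 0.0455 each. All had the same percentile in every library (97.8, 98.3, 97.4 and 97.8), so they may share a start peak and not be separate matches. Hey1 was closest to Cyp20a1 (0.245), Klf4 (0.278) and Hps5 (0.302), and Hey2 to Atox1 (0.0894), Chrac1 (0.122) and Deaf1 (0.133), of 5839 candidates each. Heyl was closest to Nup214 (0.279), Cox7a2 (0.304) and Gpr180 (0.324) of 2055.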

How the data were processed

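The files were peak lists. Per the study's methods and the labels' processing notes, reads were aligned to mm10 with Bowtie2 (2.4.4 in the notes for CUT&Tag, 2.5.4 for ATAC), duplicates were removed with Picard 3.1.1, and unique proper pairs were kept with SAMtools 1.10. The authors called MACS3 peaks per library (3.0.0 for CUT&Tag, 3.0.2 for ATAC), and each deposited peak has the fold by which its summit exceeds background. The deposited lists also give the authors' -log10 p and -log10 q. SEACR (1.3, stringent) and GoPeaks lists of the ATAC libraries were used for positions. MACS settings, any transposase shift and the use of IgG as a control are not given in the sources used here, so peak edges and numbers depend on unknown thresholds. Columns of pooled consensus lists were not used.

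The 5 genes, gene lists and tests were chosen with earlier results of these data known. Peaks of the 4 ATAC libraries that overlapped by at least 1 bp were merged into regions, and the tallest peak of a library gave its fold. A TRF2 region is a merged TRF2 interval with a peak in both TRF2 libraries. Regions were assigned to the nearest GENCODE M21 start. Log2 folds were centred on each library's median and tested with limma 3.58.1 in R 4.3.3 (trend, Benjamini-Hochberg over 61610 regions), which borrows its spread from all regions because each genotype has 2 libraries. The fit was also run on simulated data with known changes. Those data held no shift in scale between libraries, so they do not bear on the choice of scaling. No pseudocount was added, and regions without a peak in a library were left out of the fit, so a region had to pass the peak threshold in all 4 libraries. Summit pileups were solved from fold and p. No read totals were used, so precision rests on the spread between libraries. Totals over the windows were compared with an exact permutation test (6 assignments, two-sided). Named genes are all 5 members with every peak, neighbours that own a region, and Notch pathway and other family genes by role, with examples from each role. Alternatives changed the scaling, filter, caller, distance, motif loops, block and libraries. Python 3 scripts used pandas, scipy and pysam.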

Additional observations from a re-analysis of the deposited data

How the results depend on the processing

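Scaling changed the calls at the 39 Hes and Hey regions most. In place of 10 calls (9 higher and 1 lower in TRF2KO), quantile normalization gave 4 (1 higher, 3 lower), folds without centring 2 (1 higher, 1 lower), and log odds of percentiles 9 (1 higher, 8 lower). Keeping regions with a peak in any library, with missing folds set to the lowest, gave 0 lower. The start difference changed sign at Hes1 with quantile normalization (-0.13) and percentiles (-0.60 as log2 odds), and at Hes6 with quantile normalization (-0.04) and percentiles (-0.28); the cause was not tested. Leaving out 1 ATAC library gave 6 to 10 calls, 6 to 9 higher and 0 to 2 lower, with 6 and 0 without Control replicate 1. With the replicate number as a block (replicate block) the 61610 regions gave 11239 higher and 4792 lower calls against 11390 and 4606, and no count of Hes and Hey calls moved by over 1.5 times; same-numbered libraries shared only a number (r = 0.0128 over regions). Counts over all regions also moved, to 3044 higher and 4511 lower with quantile normalization, 823 and 4231 without centring and 649 and 7948 with percentiles. The difference of -7.5 peaks in the windows became 0 with GoPeaks, 3 with SEACR and -1 for peaks with -log10 q of at least 5. Without 1 library it was -11.5 to -3.5. TRF2 regions at starts fell from 3 genes to 1 with -log10 q of at least 5 in both libraries, and were 3 to 4 genes without 1 TRF2 library. The 3 regions with peaks in Control alone became 0 with the stricter threshold, 0 with GoPeaks, 0 with SEACR and 5 with windows of 100 kb. G4 motifs in TRF2 start regions were at 2 genes, and at 3 with longer loops or with a peak in either library. Longer loops also raised the share of all TRF2 start regions with a motif, from 44.5% to 65.5%. TRF2 summits at the 3 starts rested on 10 to 14 fragments, which limits what can be said of weaker binding at the starts of Hes1 and Heyl. The TRF2 peak 5 kb upstream of Heyl had summits of 17 fragments in replicate 1 and 10 in replicate 2.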
